A study of Mus musculus with 10 samples.

Results

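Small leucine-rich proteoglycans are secreted matrix proteins whose leucine-rich repeats bind collagen fibrils and growth factors, and many carry chondroitin, dermatan or keratan sulfate chains. Versican is a large chondroitin sulfate proteoglycan that binds hyaluronan and holds water and cells in loose, provisional matrix. In fat these proteins are made mainly by fibroblasts and their progenitors, and they set how collagen fibrils are spaced and how growth factors are held around the adipocytes. The genes followed here were those of decorin (Dcn), lumican (Lum), biglycan (Bgn), fibromodulin (Fmod), osteoglycin (Ogn), the proline and arginine rich end leucine-rich repeat protein (Prelp), osteomodulin (Omd), asporin (Aspn), podocan (Podn) and versican (Vcan). They were taken by name, but the list was chosen with earlier results of these data known. Every probe set annotated with exactly 1 gene symbol, that symbol being one of these names, was used. This gave 28 of 45101 probe sets for 10 of 18193 genes named on the array.

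The tissue was the epididymal white fat pad of male C57BL/6J mice, and the labels name no other genotype in either group. One group was fed from the age of 8 weeks on a high-fat diet, 60% of it fat, and was sampled 8 weeks later (n = 5 mice, 1 array each), and the other received normal chow, CRF-1, for the same time (n = 5 mice, 1 array each). Levels are normalized log2 intensities of a gene's brightest probe set, and a difference is the high-fat diet minus chow with its standard error (SE) from limma. A probe set was called at a Benjamini-Hochberg adjusted p under 0.05 over all 45037 probe sets tested.

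The arrays differed in what tissue they held. Adipocyte markers, led by Fabp4 and Lpl, were bright on every array: the mean of 8 was 12.12 to 12.58 on the high-fat diet, against 10.67 to 12.61 on chow, where arrays 1 and 2 were the lowest of all 10. The mean of 13 epididymis and testis transcripts, led by Spink8 and Gpx5, was 4.49 to 5.82 on the high-fat diet, against 7.57 to 12.10 on chow. The fibroblast and stromal progenitor markers, led by Gsn and Dpt, averaged 9.23 ± 0.22 on the high-fat diet and 8.48 ± 0.37 on chow (SD, n = 5 each), with 6 of 14 called higher and none lower. The ratio of 5' to 3' signal of the actin control was 0.557 to 0.643 on the high-fat diet and 0.272 to 0.456 on chow. The part of tissue makeup and RNA quality in the results below was not tested. Neither the epididymis and testis mean nor the actin ratio overlapped between the diets. Nor did the fibroblast mean (8.89 to 9.47 on the high-fat diet, against 7.89 to 8.78 on chow) or the same ratio for Gapdh (1.02 to 1.08 against 0.563 to 0.900). The macrophage, epithelial and smooth muscle marker means did not overlap either. The part of each of these cannot be told apart from that of diet. Fits with the epididymis and testis mean as a covariate, and fits without chow arrays 1 and 2, are given beside the results as a description. The epididymis and testis mean of chow arrays 1 to 5 was 7.57, 12.10, 10.74, 8.63 and 8.00. Leaving out arrays 1 and 2 therefore removed the lowest and the highest of these and kept array 3. Of all genes called, 50.4% were higher on the high-fat diet, but 65.4% were when the deposited scale was kept and 75.9% when array medians were set equal. In the last setting the median difference of all genes was 0.21 in place of -0.037.

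Of the 10 genes, Lum, Prelp, Vcan and Bgn rose on the high-fat diet and Fmod fell. Ogn, Aspn, Omd, Dcn and Podn were not called. The 4 of 10 called higher compare with 12.1% of all genes, and the 1 of 10 called lower with 11.9% of all genes. The high-fat and chow arrays did not overlap for those 4 genes, as for 11.5% of all genes, and none of the 10 had all high-fat arrays below all chow arrays, as 11% of all genes did. The median difference of the 10 genes was 0.77, and that of all genes was -0.037. All 10 lay above the median level of all probe sets, as did 11940 of all 18193 genes through their brightest probe sets. So did 22 of the 28 probe sets. At the level of probe sets, 10 of 28 were called higher and 1 lower, where the shares of all probe sets were 9.89% and 8%. In bulk tissue, fewer cells of a type and less RNA per cell cannot be told apart.

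**Figure D1:**
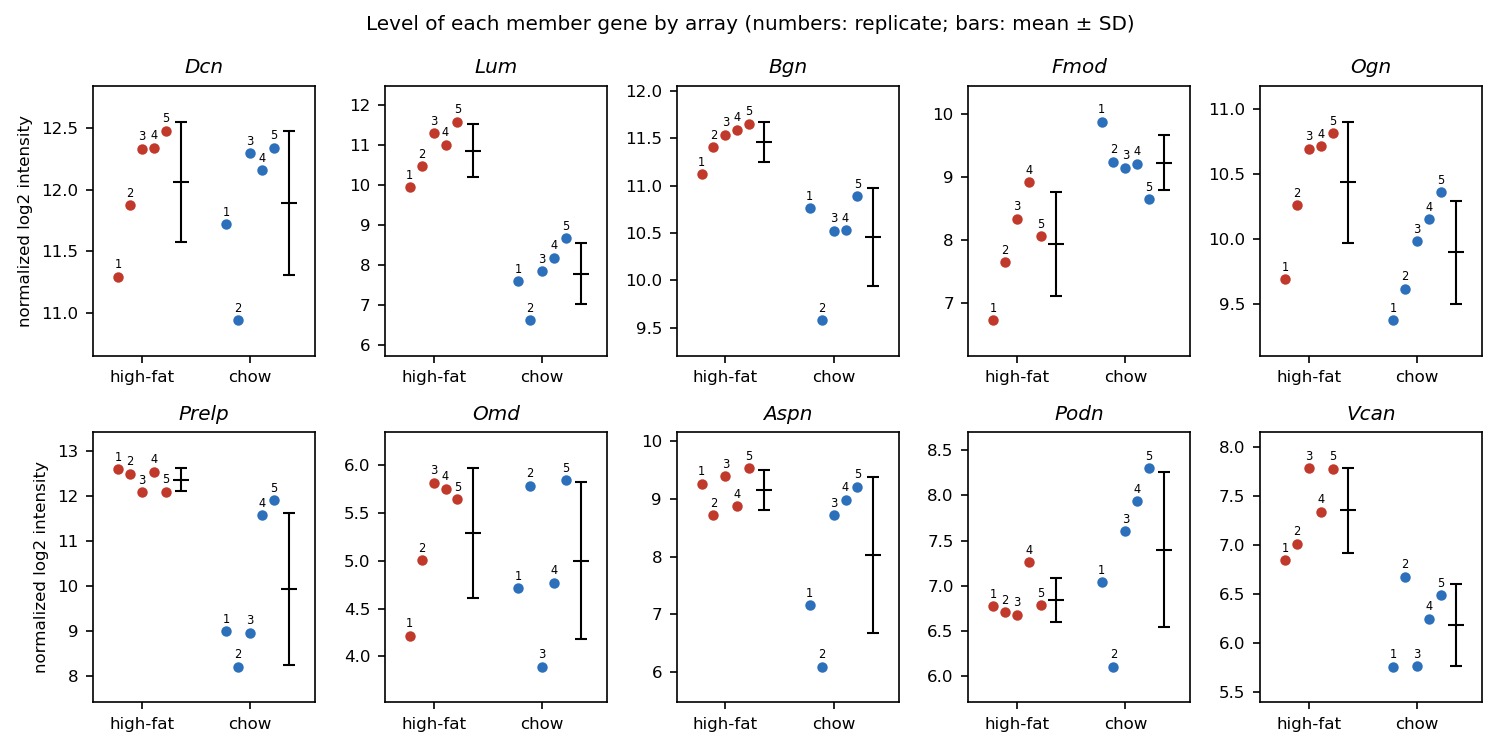
Normalized log2 intensity of the brightest probe set of each of the 10 genes, with 1 point per array numbered by replicate, the high-fat group in red on the left and chow in blue on the right; bars give the mean and SD of 5 arrays. Lum, Bgn, Prelp and Vcan show 2 groups that do not overlap, while the chow arrays of Prelp and Aspn spread over more than 3 log2 units.

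Lumican, a keratan sulfate proteoglycan that regulates collagen fibril diameter, differed most among the brightest probe sets. Lum had levels of 9.94, 10.47, 11.30, 11.00 and 11.58 in the 5 high-fat arrays, against 7.59, 6.61, 7.85, 8.18 and 8.66 in the 5 chow arrays. Every high-fat array lay above every chow array, and the lowest high-fat array exceeded the highest chow array by more than 1 log2 unit. Lum rose by 3.08 on the log2 scale, or 8.44-fold (SE 0.39, 95% interval 2.23 to 3.93, limma adjusted p = 0.000289). Without chow arrays 1 and 2, Lum rose by 2.63 (SE 0.34, limma adjusted p = 0.000246). With the epididymis and testis mean as a covariate the difference was 1.64 and was no longer called (SE 0.57, limma adjusted p = 0.184).

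Versican was measured by 8 probe sets, of which 3 rose and the 5 dimmest were not called. Vcan, by its brightest probe set 1427256_at, had levels of 6.84, 7.01, 7.78, 7.34 and 7.78 in high-fat arrays, against 5.76, 6.68, 5.76, 6.25 and 6.49 in chow arrays. The groups did not overlap, though high-fat array 1 and chow array 2 lay close together. It rose by 1.17, or 2.24-fold (SE 0.25, limma adjusted p = 0.00757), and was not called when all 8 probe sets were averaged (0.82, limma adjusted p = 0.0775). Probe set 1421694_a_at of Vcan rose by 1.76 (SE 0.24, limma adjusted p = 0.000548), and all 5 high-fat arrays lay above all 5 chow arrays. The dim probe set 1427257_at of Vcan rose by 3.72 (SE 0.64, limma adjusted p = 0.00218), but by 1.53 on the log2(value + 16) scale, since its chow levels were only 0.23 to 3.84. The annotation used does not say which versican splice forms these probe sets read. The other 5 probe sets of Vcan had intensities of at most 11.9 on any array, and they differed by -1.03 to 0.77 with adjusted p-values of 0.433 to 0.874 by limma.

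The 3 probe sets of biglycan moved together. Biglycan carries chondroitin or dermatan sulfate chains, and its soluble form is known to act on the innate receptors Tlr2 and Tlr4. Bgn had levels of 11.12, 11.41, 11.54, 11.59 and 11.65 in high-fat arrays, against 10.76, 9.58, 10.52, 10.53 and 10.89 in chow arrays. Every high-fat array lay above every chow array, and the chow group was spread downwards by array 2. The brightest probe set rose by 1.01, or 2.01-fold (SE 0.22, 95% interval 0.52 to 1.50, limma adjusted p = 0.00961), and the other 2 rose by 1.11 and 1.05. With the epididymis and testis mean as a covariate Bgn differed by 0.0075 (SE 0.26, limma adjusted p = 0.994).

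Prelp rose, but its chow arrays were split. Prelp encodes a protein that binds collagen and the heparan sulfate of basement membranes. Its levels were 12.59, 12.50, 12.08, 12.54 and 12.09 in high-fat arrays, against 9.00, 8.21, 8.96, 11.57 and 11.90 in chow arrays. Chow arrays 1, 2 and 3 lay far below chow arrays 4 and 5, which lay just under the high-fat group. The mean of the adipocyte markers was 11.37, 10.67 and 11.98 in chow arrays 1, 2 and 3, against 12.52 and 12.61 in chow arrays 4 and 5. Chow array 3 lay above chow array 1 on that mean, but not for Prelp. The part of adipocytes in the split of Prelp was not tested. Prelp rose by 2.43, or 5.40-fold (SE 0.64, 95% interval 1.02 to 3.84, limma adjusted p = 0.0226). Its other probe set, 1416322_at, rose by 2.13 (SE 0.67, limma adjusted p = 0.0462), but was called in only 11 of 23 settings and in none that left out a high-fat array (limma adjusted p = 0.0755 to 0.0995). Without chow arrays 1 and 2 Prelp differed by 1.55 and was not called (SE 0.54, limma adjusted p = 0.0549). It was also not called without chow array 1 or 3 alone (adjusted p = 0.0504 and 0.0592), or without high-fat array 1, 2 or 4 alone (0.0519, 0.0534 and 0.0547, all by limma).

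Fibromodulin, a keratan sulfate proteoglycan closely related to lumican that binds the same fibrillar collagens, went the other way. Fmod had levels of 6.72, 7.64, 8.33, 8.91 and 8.06 in high-fat arrays, against 9.88, 9.24, 9.15, 9.21 and 8.64 in chow arrays. The groups overlapped, since high-fat array 4 lay above chow array 5. By its brightest probe set Fmod fell by 1.29 on the log2 scale, or 2.45-fold (SE 0.36, limma adjusted p = 0.0282). All 6 Fmod probe sets had negative differences, but the other 5 differed by -0.94 to -0.48 and were not called, with limma adjusted p-values of 0.0612 to 0.333. The call of Fmod was also lost on the deposited scale (-1.01, adjusted p = 0.0807), when array medians were set equal (-0.87, adjusted p = 0.112) and without chow arrays 1 and 2 (-1.07, adjusted p = 0.0702, all by limma). It was lost as well without chow array 1, 3 or 4 alone (limma adjusted p = 0.061, 0.055 and 0.0515). The same held without high-fat array 2 or 5 alone (limma adjusted p = 0.0708 and 0.0557). The brightest Fmod probe set was called in 13 of 26 settings, the main one included. The mean of the smooth muscle and pericyte markers, of which Acta2 and Rgs5 were the brightest, was also lower on the high-fat diet. It was 7.78 ± 0.40 against 10.04 ± 0.95 on chow (SD, n = 5 each), with 6 of 9 called lower and none higher. The mesothelial (6.19 against 7.45), epithelial (4.26 against 8.61), epididymis and testis (5.24 against 9.41) and endothelial (8.69 against 8.94) means were lower too. The fibroblast, macrophage, adipocyte and lymphocyte means were higher. In high-fat array 1, where Fmod was lowest, the smooth muscle mean was the highest of its group (8.22) and the mesothelial mean the lowest (5.23). Among chow arrays, Fmod and the smooth muscle mean were both highest in array 1 (9.88 and 11.67) and both lowest in array 5 (8.64 and 9.31). The mesothelial mean on chow was highest in array 1 (8.54) and lowest in array 2 (6.77). The part of any of these cells in the Fmod difference was not tested.

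**Figure D2:**
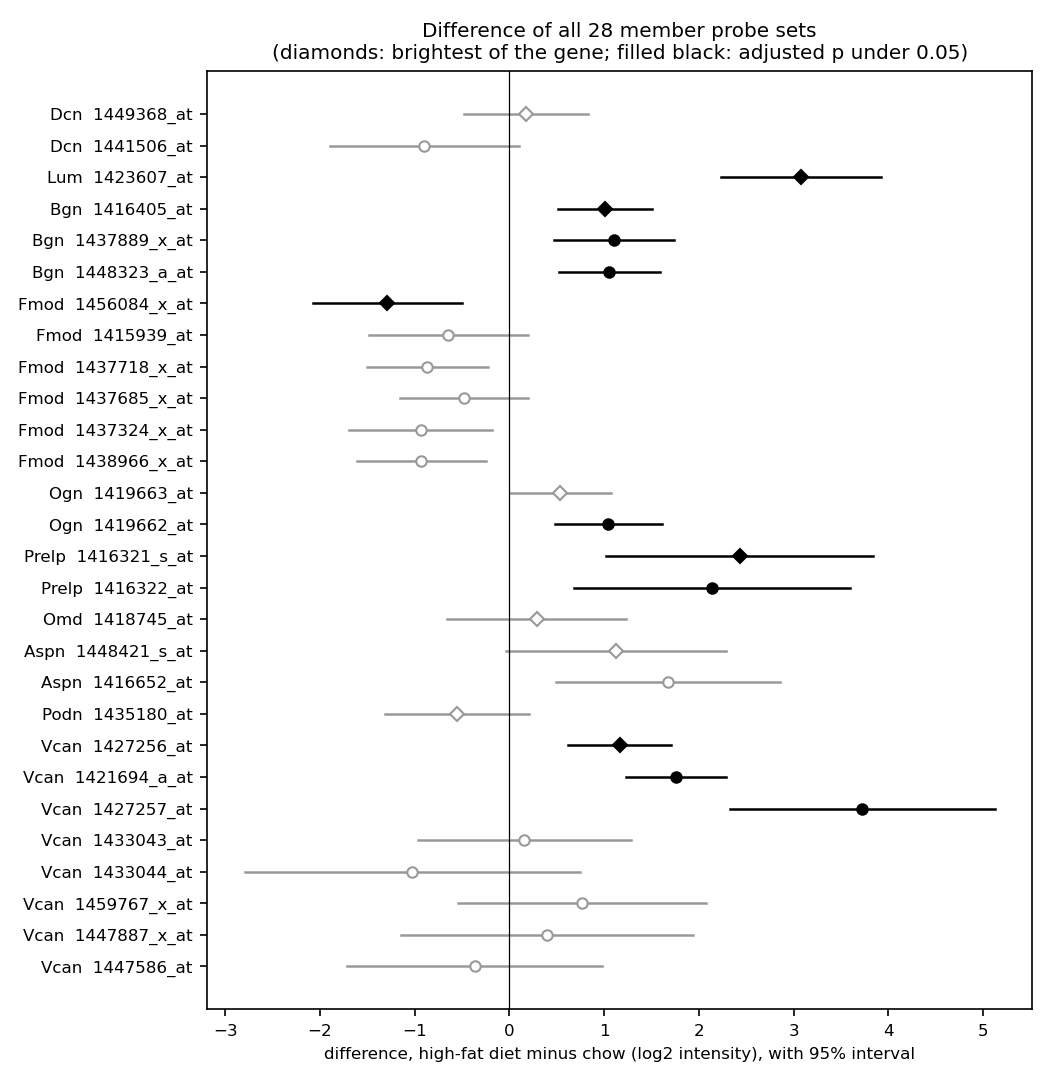
Difference of each of the 28 probe sets, high-fat diet minus chow, in log2 intensity, with 95% intervals from limma; diamonds mark the brightest probe set of a gene and filled black symbols an adjusted p under 0.05. The 3 Bgn probe sets lie together near 1, the 6 Fmod probe sets all lie below 0, and those of Vcan spread from -1.03 to 3.72.

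Osteoglycin and asporin had positive differences, but their brightest probe sets were not called, and both calls depended on the scaling. Osteoglycin, also named mimecan, is a matrix proteoglycan of connective tissue. Ogn had levels of 9.69, 10.26, 10.70, 10.71 and 10.82 in high-fat arrays, against 9.38, 9.62, 9.98, 10.15 and 10.36 in chow arrays, and the groups overlapped. It differed by 0.54 (SE 0.24, 95% interval 0.0037 to 1.07, limma adjusted p = 0.161). Ogn was called on the deposited scale (0.87, adjusted p = 0.0448), when array medians were set equal (1.0, adjusted p = 0.0134), as the mean of its probe sets (0.79, adjusted p = 0.0465) and without high-fat array 1 (0.72, adjusted p = 0.0447, all by limma). The second Ogn probe set, 1419662_at, had lower intensities and rose by 1.04 (SE 0.26, limma adjusted p = 0.0165). Asporin is a relative of decorin and biglycan that competes with decorin for collagen. Aspn had levels of 9.26, 8.72, 9.40, 8.87 and 9.53 in high-fat arrays, against 7.15, 6.09, 8.71, 8.99 and 9.21 in chow arrays. Only chow arrays 1 and 2 stood clearly below the rest. Aspn differed by 1.13 (SE 0.53, 95% interval -0.035 to 2.29, limma adjusted p = 0.177), and its second probe set, 1416652_at, by 1.67 (SE 0.54, limma adjusted p = 0.0535). When array medians were set equal the brightest Aspn probe set was called (1.51, limma adjusted p = 0.0475). Without chow arrays 1 and 2 the difference of the brightest Aspn probe set was 0.19 (SE 0.19, limma adjusted p = 0.529).

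Decorin, which binds collagen and transforming growth factor beta, was bright in both groups and was not called. Dcn had levels of 11.30, 11.88, 12.33, 12.34 and 12.48 in high-fat arrays, against 11.72, 10.94, 12.30, 12.16 and 12.34 in chow arrays. The groups overlapped throughout, and the lowest arrays were chow array 2 and high-fat array 1. Dcn differed by 0.17 (SE 0.30, 95% interval -0.48 to 0.83, limma adjusted p = 0.749). The second Dcn probe set, 1441506_at, was dim and had the opposite sign at -0.90 (SE 0.45, limma adjusted p = 0.209). Without chow arrays 1 and 2 that probe set fell by 1.59 (SE 0.20, limma adjusted p = 0.000234), while the bright one differed by -0.20 (SE 0.24, limma adjusted p = 0.594).

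Omd and Podn were each read by 1 dim to moderate probe set. Osteomodulin is a keratan sulfate proteoglycan best known from bone. Omd had levels of 4.22 to 5.82 in high-fat arrays, against 3.89 to 5.85 in chow arrays, and differed by 0.29 (SE 0.43, 95% interval -0.66 to 1.23, limma adjusted p = 0.71). Podocan is a leucine-rich repeat protein first described in the kidney. Podn had levels of 6.78, 6.71, 6.68, 7.27 and 6.79 in high-fat arrays, against 7.04, 6.11, 7.61, 7.94 and 8.30 in chow arrays. Chow arrays 3, 4 and 5 lay above every high-fat array, and chow array 2 lay below them all. Podn differed by -0.56 (SE 0.35, 95% interval -1.32 to 0.21, limma adjusted p = 0.319). Without chow array 2 it fell by 0.88 (SE 0.23, limma adjusted p = 0.0209), and without chow arrays 1 and 2 by 1.11 (SE 0.18, limma adjusted p = 0.00101).

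Counts without chow arrays 1 and 2 were close to those over all arrays, but held different genes. There 3 of the 10 genes rose, Lum, Vcan and Bgn, against 17.8% of all genes, and 1 fell, Podn, against 18.9% of all genes. With the epididymis and testis mean as a covariate none of the 10 genes was called by limma, where 2.18% of all genes were called higher and 0.698% lower. In that fit Vcan still differed by 1.23 (SE 0.49, adjusted p = 0.248), about as much as without the covariate, and Prelp by 0.40 (SE 1.06, adjusted p = 0.893). The differences of Fmod, at -1.67 (SE 0.70, adjusted p = 0.269), and Podn, at -1.68 (SE 0.56, adjusted p = 0.171), were larger there than without the covariate, and so were their standard errors.

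Single arrays stood low or high for several of these genes at once. High-fat array 1 was the lowest of its group for 7 of the 10 genes and high-fat array 5 the highest for 5 of them. Chow array 2 was the lowest of its group for 6 genes, and chow array 5 the highest for 8. The mean of the fibroblast and stromal progenitor markers ended in the same arrays, at 8.89 in high-fat array 1 and 9.47 in high-fat array 5, against 7.89 in chow array 2 and 8.78 in chow array 5. Set against that marker mean within each array, Lum was at 1.04 to 2.10 on the high-fat diet, against -1.28 to -0.12 on chow. It was the one gene of the 10 whose high-fat arrays all stayed above all chow arrays, as 3.45% of all genes did. On the same measure Fmod was at -2.17 to -0.38 on the high-fat diet, against -0.14 to 1.51 on chow, and Podn at -2.69 to -2.03 against -1.79 to -0.48. These were the 2 genes of the 10 with all high-fat arrays below all chow arrays, as 29.5% of all genes were. Bgn relative to the marker mean was 2.23 ± 0.049 on the high-fat diet and 1.98 ± 0.28 on chow, and Vcan was -1.88 ± 0.24 and -2.29 ± 0.63 (SD, n = 5 each), with groups that overlapped for both.

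**Figure D3:**
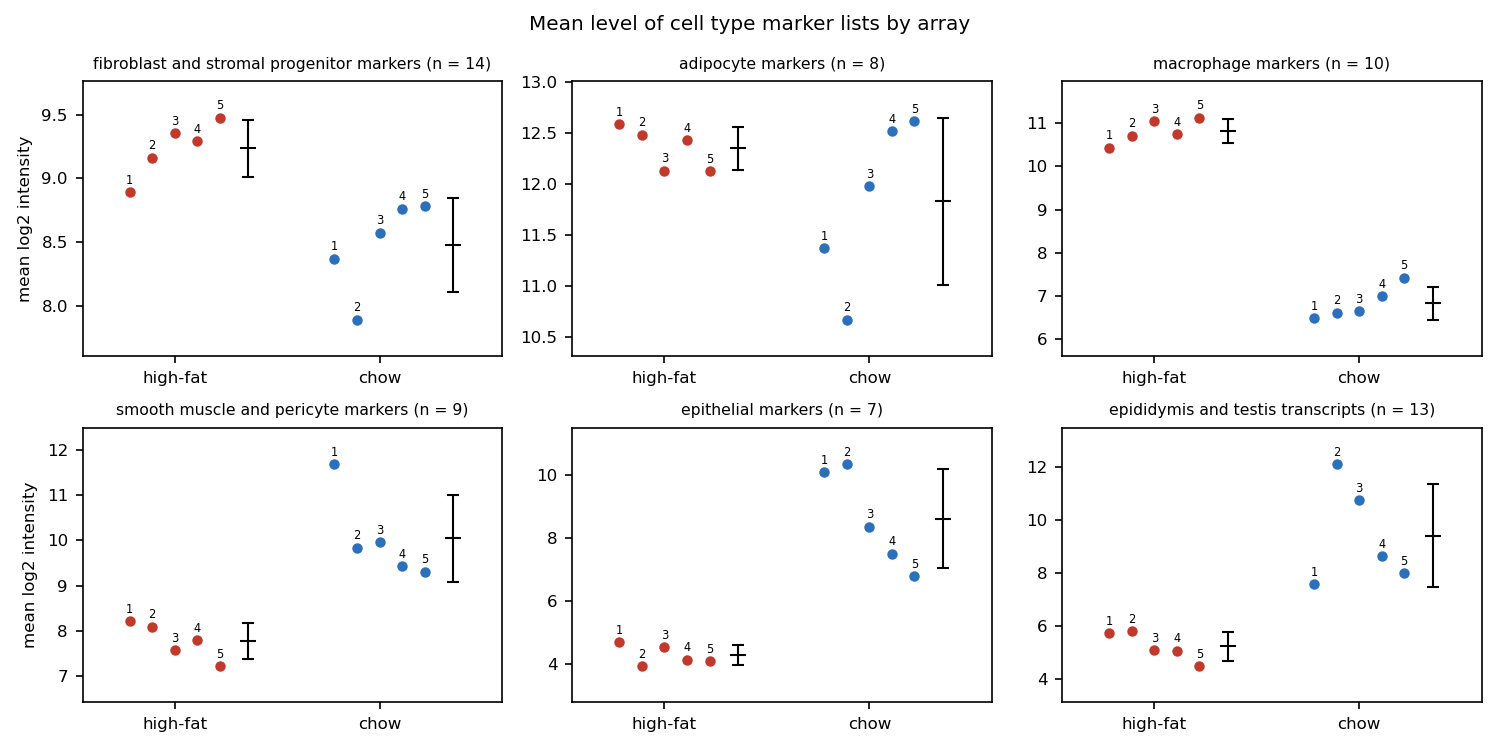
Mean normalized log2 intensity of 6 marker lists on each array, high-fat group on the left in red and chow on the right in blue, numbered by replicate, with the mean and SD of 5 arrays. Chow arrays 1 and 2 have the lowest adipocyte means, 11.37 and 10.67, and every chow array lies above every high-fat array for the epididymis and testis list.

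Other marker lists moved beside these genes. Of 10 macrophage markers, led by Lyz2 and Csf1r, 9 were called higher and none lower, with means of 10.43 to 11.12 on the high-fat diet, against 6.49 to 7.43 on chow. All 7 epithelial markers, led by Krt8 and Krt18, were called lower, with means of 3.92 to 4.68 on the high-fat diet, against 6.78 to 10.34 on chow. Of 13 epididymis and testis transcripts 6 were called lower, and of 7 mesothelial markers, led by Upk3b and Gpm6a, 2 were. None of 8 endothelial markers, led by Cdh5 and Cldn5, was called in limma, 1 of 8 adipocyte markers was called higher, and 2 of 7 lymphocyte markers, led by Cd8a and Cd79b, were called higher. The part of these cells in the proteoglycan differences was not tested.

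Several of these genes lie side by side in the mouse genome (GRCm38.p6, RefSeq), and in 2 of 4 neighbouring pairs the change was unequal. Dcn and Lum are next to each other on chromosome 10, Prelp and Fmod on chromosome 1, and Aspn, Omd and Ogn follow each other on chromosome 13. The difference between the levels of 2 neighbours within an array was compared between diets for these 4 pairs, a test added after the values were seen. Lum and Prelp already separated the diets, while Dcn overlapped and Fmod fell. The p-values of those 2 pairs restate these single-gene differences and are given as a description. Lum minus Dcn was -1.21 ± 0.23 on the high-fat diet and -4.12 ± 0.30 on chow (SD, n = 5 each). That is an unequal change of 2.90 on the log2 scale (SE 0.17), with no overlap (2-sided exact permutation p = 0.00794 over 252 arrangements, the smallest possible, and 0.0159 adjusted over the 4 pairs). Prelp minus Fmod was 4.43 ± 0.94 on the high-fat diet and 0.70 ± 1.97 on chow, an unequal change of 3.72 with no overlap (SE 0.98, 2-sided exact permutation p = 0.00794, adjusted 0.0159, n = 5 each). Without chow arrays 1 and 2 these 2 changes were 2.83 and 2.62 (each with an exact permutation p of 0.0179, 2-sided, which is the lowest 5 against 3 arrays can give). In the chromosome 13 group, Aspn minus Omd changed by 0.84 (SE 0.85, 2-sided exact permutation p = 0.397) and Ogn minus Omd by 0.25 (SE 0.40, 2-sided exact permutation p = 0.548), both within the spread of the arrays.

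**Figure D4:**
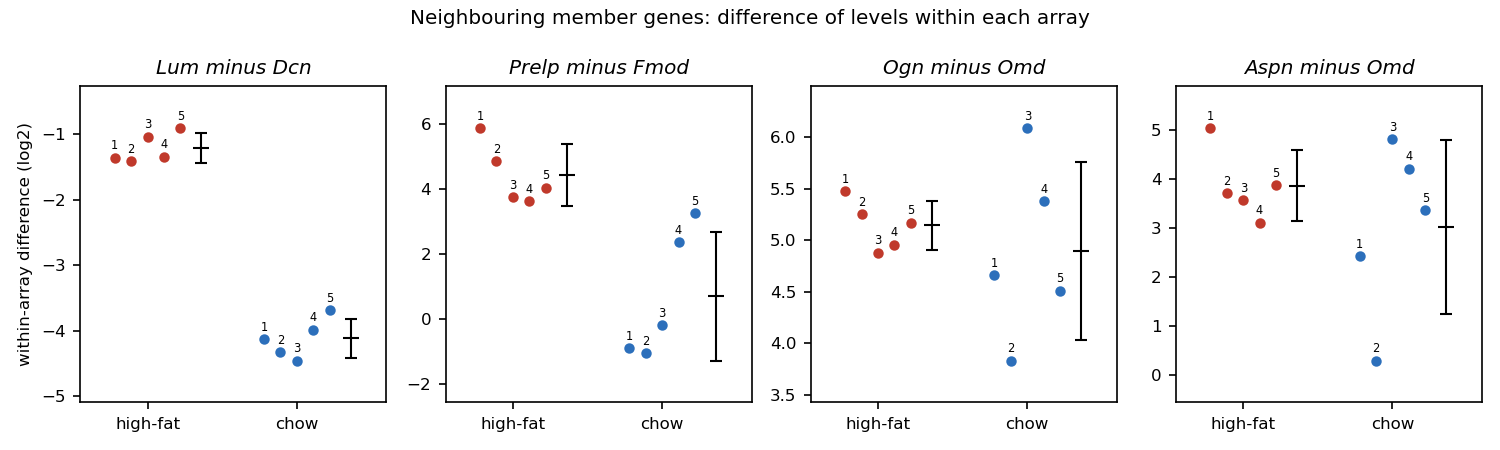
Difference of the log2 levels of 2 neighbouring genes within each array, for the 4 neighbouring pairs, with the high-fat group on the left in red and chow on the right in blue, numbered by replicate, and the mean and SD of 5 arrays. Lum minus Dcn separates the diets with little spread, while Ogn minus Omd and Aspn minus Omd overlap.

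The sequences upstream of the start sites are shown for the neighbours Prelp and Fmod, which moved in opposite directions, and for Bgn and Vcan, which both rose. Each is 250 bases long, ends at the base before the RefSeq start site (GRCm38.p6) and reads 5′ to 3′ on the gene's strand. Matches to 3 motifs on either strand are in capitals: the GC box GGGCGG, the TATA box TATAAA and the AP-1 site TGANTCA. Prelp lies on the minus strand at chr1:133921402-133921651, Fmod on the plus strand at chr1:134037004-134037253, Bgn on the plus strand at chrX:73483351-73483600 and Vcan on the minus strand at chr13:89742513-89742762.
Prelp: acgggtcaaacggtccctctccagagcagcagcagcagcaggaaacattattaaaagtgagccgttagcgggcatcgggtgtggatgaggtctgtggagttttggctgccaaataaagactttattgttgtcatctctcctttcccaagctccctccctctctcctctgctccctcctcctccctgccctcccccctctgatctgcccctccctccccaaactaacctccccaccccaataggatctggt
Fmod: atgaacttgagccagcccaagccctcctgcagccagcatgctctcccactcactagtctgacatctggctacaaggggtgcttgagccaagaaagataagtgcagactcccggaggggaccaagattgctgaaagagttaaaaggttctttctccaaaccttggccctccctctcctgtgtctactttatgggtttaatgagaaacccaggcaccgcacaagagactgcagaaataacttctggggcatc
Bgn: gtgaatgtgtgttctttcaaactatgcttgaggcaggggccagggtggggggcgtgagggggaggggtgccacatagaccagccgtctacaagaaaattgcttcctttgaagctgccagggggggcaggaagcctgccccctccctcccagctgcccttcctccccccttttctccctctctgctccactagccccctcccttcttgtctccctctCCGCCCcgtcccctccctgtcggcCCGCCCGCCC
Vcan: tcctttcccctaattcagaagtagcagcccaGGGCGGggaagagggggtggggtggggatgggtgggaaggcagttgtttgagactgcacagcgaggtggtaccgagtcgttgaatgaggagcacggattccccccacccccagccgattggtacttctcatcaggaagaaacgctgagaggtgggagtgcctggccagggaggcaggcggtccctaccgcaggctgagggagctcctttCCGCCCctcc
The windows of Prelp and Fmod held none of the 3 motifs. That of Bgn held 3 GC box matches, the last pair of which share bases, and that of Vcan held 2. No match overlapped one of another motif. Of 32851 windows of this length in the table, 32.7% held a GC box, 12.4% a TATA box and 6.75% the AP-1 letters. The windows of Aspn and Ogn, which are not shown, held 2 TATA box matches each. Podn, which was not called, has windows at 2 start sites, also not shown. Its upstream window held 2 GC box matches, as did that of Vcan, and its other window held none of the 3 motifs. The window of Omd, not shown, held none of them either. Lum and Dcn had no window in the reference used and were not searched. Among the genes searched, GC box matches were therefore not confined to those that rose. A match is a description of the letters in this window.

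The proteins that build, bind and cut these proteoglycans were followed as lists. Of all genes, 12.1% were called higher and 11.9% lower. Genes named beyond the 3 largest called changes of a list, or the 2 smallest p-values where fewer passed, were chosen after their values were seen. Among enzymes that start the glycosaminoglycan chain and extend it as chondroitin or dermatan sulfate, 7 of 26 rose and none fell, with a median difference of 0.63. The largest called rises were those of Dse (2.46, SE 0.45), the epimerase that turns chondroitin into dermatan sulfate, Ust (1.98, SE 0.23), a uronyl sulfotransferase, and Chst14 (1.06, SE 0.24), the dermatan sulfotransferase. Of 13 keratan sulfate genes, none rose and B4galt4, a galactosyltransferase, fell by 1.42 (SE 0.38, limma adjusted p = 0.0254), a call lost in 8 of 25 alternatives. B3gnt2, which extends the repeat, differed by 0.35 (limma adjusted p = 0.263).

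Of 7 genes for the lysosomal breakdown of these chains, 5 rose and none fell, with a median difference of 0.96: Gusb, the beta-glucuronidase (2.94, SE 0.18), Hexa, a hexosaminidase subunit (1.55, SE 0.15), Galns, a keratan sulfate sulfatase (1.25, SE 0.14), Arsb (0.96) and Idua (0.78). All of the macrophage markers but 1 rose in the same arrays. Whether the enzymes came from macrophages was not tested.

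Of 15 collagens and other matrix partners 12 rose and none fell, with a median difference of 1.70. The largest rises were those of Col5a2 (2.42, SE 0.46), a chain that nucleates collagen fibrils, Col1a1 (2.26, SE 0.40), the main fibril chain, and Col6a2 (2.09, SE 0.26), a chain of the beaded filaments that bind decorin and biglycan.

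Among hyaluronan-binding proteins, link proteins and hyaluronan genes, 5 of 20 rose and none fell, where 12.1% of all genes rose and 11.9% fell, with a median difference of 0.36. Cd44, the cell surface receptor of hyaluronan, rose by 3.80 (SE 0.29, limma adjusted p = 9.96e-06). Ncan, the gene of the versican relative neurocan, rose by 4.47 (SE 0.52), though by 2.54 on the log2(value + 16) scale, and Hmmr, a hyaluronan receptor that is also a gene of dividing cells, by 2.55 (SE 0.24). Stab2 (0.99) and Hapln3 (0.78) completed the 5, and the call of Hapln3 (limma adjusted p = 0.0443) was lost in 13 of 25 alternatives.

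Of 13 proteases that act on versican and its relatives, 5 rose and 1 fell, with a median difference of 0.49. Mmp12, the macrophage elastase, rose by 6.08 (SE 0.55), Mmp13, a collagenase, by 5.20 (SE 0.63; 2.12 on the log2(value + 16) scale), and Mmp3 by 3.06 (SE 0.35). Mmp2 (2.19) and Bmp1 (0.49), which trims the biglycan propeptide, also rose. Adamts20 fell by 2.40 (SE 0.66, limma adjusted p = 0.0277), but by 0.51 on the log2(value + 16) scale, where it was not called (limma adjusted p = 0.0593).

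Of 20 signalling partners of decorin, biglycan and versican, 7 rose and 4 fell, where 12.1% of all genes rose and 11.9% fell, with a median difference of 0.43. The risers included Selplg (3.20, SE 0.18), a leukocyte ligand of selectins, the ATP-gated channels P2rx7 (1.96, SE 0.17) and P2rx4 (1.94, SE 0.20), and the biglycan receptors Tlr2 (1.84) and Tlr4 (1.68). The fallers were Igf1r (-1.73), Erbb2 (-1.66) and Met (-1.15), growth factor receptors of which Met and Igf1r bind decorin, and Bmp4 (-0.75). Without chow arrays 1 and 2 the counts called higher and lower were 10 and 1 for chondroitin and dermatan sulfate synthesis, 6 and 0 for breakdown, 12 and 1 for the collagens, 4 and 2 for the hyaluronan genes, 5 and 4 for the proteases and 7 and 5 for the signalling partners. Without those 2 arrays 17.8% of all genes were called higher and 18.9% lower. With the epididymis and testis mean as a covariate, those called higher were 1, 2, 1, 2, 1 and 4 in the same order, where 2.18% of all genes were. Those called lower were 0, 0, 0, 0, 0 and 1, where 0.698% of all genes were. None of 7 other leucine-rich proteoglycan family genes was called by limma. Ecm2, the neighbour of Aspn, differed by 1.08 (SE 0.45, adjusted p = 0.133) and Chad, the chondroadherin gene, by -1.61 (SE 0.78, adjusted p = 0.189), but by -0.31 on the log2(value + 16) scale.

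**Figure D5:**
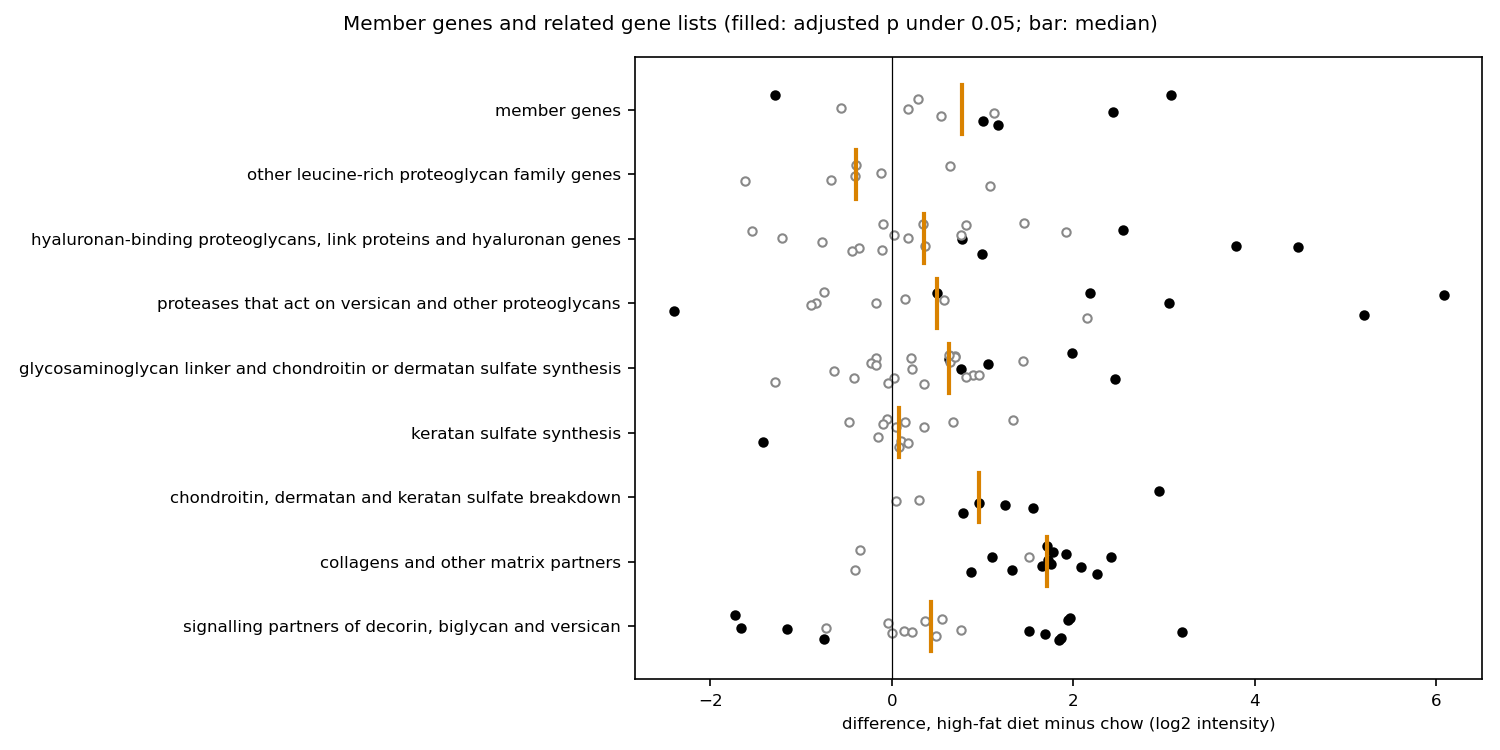
Differences, high-fat diet minus chow in log2 intensity, of the 10 genes and of 8 related gene lists, with 1 point per gene, filled where the limma adjusted p was under 0.05, and a bar at the median. The collagens have a median of 1.70, and the keratan sulfate genes one of 0.075.

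The genes whose profile across the 10 arrays was most like that of each gene were found by Pearson's correlation among 11940 genes above the median level, as a description, since the arrays share their diet groups. Lum was nearest to Fnip2, Ninj1 and Pip4k2a (0.995 to 0.994), and Prelp to Myl1, Znrf2 and Cryab (0.996 to 0.991). Bgn was nearest to Selenon, Antxr2 and Timp2 (0.991 to 0.989), of which Antxr2 binds collagen and Timp2 inhibits matrix proteases. Vcan was nearest to Limd1, Katnbl1 and Cd276 (0.987 to 0.974), and Aspn to Serinc1, its neighbour Ecm2 and Qk (0.987 to 0.982). Podn was nearest to Klf9, Cfl2 and Gpatch8 (0.973 to 0.967), and Fmod to Spock2, itself a proteoglycan gene, Adcy1 and Cobl (0.955 to 0.949). Dcn was nearest to Ncoa3, Rnase4 and Tnfrsf11b (0.956 to 0.948), Ogn to Plxdc2, Ncapg2 and Ackr2 (0.943 to 0.920), and Omd to Map3k11, Yipf7 and Enox2 (0.952 to 0.855). None of the 10 genes was among the 3 nearest of another.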

How the data were processed

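RNA of the 10 fat pads was hybridised as biotin-labelled cRNA, per the labels' protocols, to 1 Affymetrix mouse array each. The deposited values were linear intensities per probe set; how they were summarised and scaled is not stated in the labels. Genes were named from the platform annotation, which gives 1 symbol for 34958 probe sets, several for 932 and none listed for 9211. The 64 control probe sets were left out. The number of arrays limits the precision, and the median intensity per array was 17.9 to 27.4.

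Deposited intensities were floored at their 5th percentile (0.658), turned to log2 and quantile normalized, since array medians differed by 0.613 log2 units. All 45037 probe sets were fitted with limma 3.58.1 in R 4.3.3 (lmFit, eBayes with trend), with p-values adjusted over all of them. A gene was counted through its brightest probe set. The pipeline was tested on simulated data. Alternatives were the scaling, floor, filters, probe set rule, array weights, leaving out arrays, the replicate block and an epididymis and testis covariate.

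The proteoglycan genes and all lists were chosen with earlier results of these data known. All 10 genes are named, with the 3 largest called changes of each related list (filled to 2 genes by the smallest p where fewer were called), and the 2 brightest markers of each marker list. The labels do not say that mice were housed or handled apart, so p-values measure the spread between these arrays.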

Additional observations from a re-analysis of the deposited data

Results flagged for a closer look

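In 6 of 56 groups of 5 arrays, 1 array stood farther from the others than Dixon's 95% critical value of 0.71 allows. Chance gives about 1 in 20 for independent groups, but these groups share arrays and genes, so the 2 shares are not a test. In 3 of the 6 flagged groups the array was chow array 2, the lowest for Bgn: 9.58 by 1416405_at (the next array was at 10.52), 9.13 by 1437889_x_at (next 10.47) and 9.16 by 1448323_a_at (next 10.22). For Podn, high-fat array 4 was highest at 7.27 (next 6.79). Of the dim Vcan probe sets, 1447887_x_at had chow array 4 highest at 1.82 (next -0.43) and 1447586_at had chow array 3 highest at 2.37 (next 0.24).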

How the results depend on the processing

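The count of 4 genes higher was within 1.5 times in every alternative except the epididymis and testis covariate, where 0 were called higher and 0 lower. With that covariate 2.18% of all genes were called higher and 0.698% lower. Leaving out 1 array at a time gave 3 to 4 genes higher and 0 to 2 lower, where 1691 to 2616 of all 18193 genes were higher and 1580 to 2679 lower. The count of 1 lower moved to 2 with array weights, and to 0 with values as deposited, arrays centred on medians, no eBayes trend, the mean of a gene's probe sets and no _x_at or _s_at probe sets. Of all 18193 genes, 3147 were called lower with array weights. In the settings with 0 it was 1331 to 1970 genes, of 17903 without _x_at or _s_at probe sets and of 18193 otherwise. With the replicate block, 5 genes were higher, among them Ogn (limma adjusted p = 0.0237), and 0 lower. In that fit 1776 of all 18193 genes were called higher and 1685 lower. Over probe sets above the median level, deviations of same-numbered arrays correlated at -0.0616 to 0.0135. That gives no sign that the numbers pair the mice, but it cannot exclude a pairing. Over 250 comparisons of the 10 genes with their alternatives, 211 kept direction and call, 24 lost the call, 9 gained it and 6 changed sign. The causes were not tested.

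Sign changes were as follows. Dcn 1449368_at was at -0.049 with array weights, -0.36 with the mean of probe sets, -0.065 without chow array 2, -0.20 without chow arrays 1 and 2 and -0.71 with the covariate. With the covariate, Bgn 1437889_x_at was at -0.14, Prelp 1416322_at at -0.022, Aspn 1448421_s_at at -0.32, B3gnt2 at -0.28, Chsy1 at -0.15 and Col3a1 at -0.0077. Dim Vcan probe sets also turned: 1433043_at was at -0.063 as deposited, -0.083 without high-fat array 2, -0.0084 without chow arrays 1 and 2 and -0.071 with the covariate; 1447887_x_at was at -0.049 without high-fat array 4 and -0.45 with the covariate; 1447586_at was at 0.18 without chow array 3 and 0.40 with the covariate. Ogn minus Omd changed by -0.014 without chow array 2 and -0.18 without chow arrays 1 and 2, and Aspn minus Omd by -0.27 without both. Leaving out 1 array at a time gave values up to 0.37 for Dcn 1449368_at, 0.51 for Vcan 1433043_at, 0.87 for Vcan 1447887_x_at and 0.55 for Ogn minus Omd, and down to -0.58 for Vcan 1447586_at. On the log2(value + 16) scale Ogn minus Omd changed by 0.69 (2-sided exact permutation p = 0.0317). Signal near the floor limits the 5 dim Vcan probe sets.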
